A study of Mus musculus with 6 samples.

Results

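Transcripts of 36 genes of the hypoxia and HIF pathway were followed in splenocyte cultures by RNA sequencing. The genes were chosen by symbol, as a list of HIF subunits, their oxygen-dependent regulators and known hypoxia targets. The choice was made with earlier results of these data known, so shares set beside those of all genes are descriptive. All 36 had a row among the 23453 gene rows of the deposited count table. The cultures came from C57BL/6 OT1 mice, a strain with T cells engineered to recognise a peptide of OVA, and the labels name the cells as cytotoxic T lymphocytes. All cultures received the peptide for 48 h. They then received TCM or, as the control, FCM for 8 h, with 3 libraries in each group. The labels expand neither TCM nor FCM, title the FCM samples as vehicle and give no age, pooling or culture of origin, so the replicate spread behind each p-value may be technical.

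The 2 deposited tables disagree on which group is which. All 6 normalized columns were exact multiples of count columns with an equal replicate number but the opposite group in the title. Groups are therefore called count-table TCM and count-table FCM, by the header of the count table, and every direction given here turns round under the header of the normalized table. Total counts ran from 17166687 to 21197117 in count-table TCM and from 18729982 to 25789381 in count-table FCM, so that 1 count was worth 0.0374 to 0.0655 CPM after scaling. The replicate 1 libraries of both groups stood apart from replicates 2 and 3 on the second principal component, which held 8.32% of the variance.

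HIF is a transcription factor made of an oxygen-labile alpha subunit and a stable partner. In oxygen, prolyl hydroxylases mark the alpha subunit for capture by the VHL ubiquitin ligase and its destruction, and an asparaginyl hydroxylase blocks its activity. When oxygen is short, or when activating signals such as T cell receptor engagement raise the alpha subunit, HIF binds short elements with the core ACGTG or GCGTG and drives genes of glycolysis, mitophagy, collagen modification and angiogenesis. In cytotoxic T cells this programme is known to go with glycolytic metabolism and effector function. The alpha subunit is controlled largely as a protein, which RNA counts do not measure.

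Among the 36 chosen genes, 21 were higher in count-table TCM, while 7 of the 10 genes for HIF subunits, oxygen sensors and inhibitors were not called. Of the 36 genes, 35 passed the filter on low counts. Of these, 21 rose and 2 (5.71%) fell at an adjusted p of 0.05 in edgeR, against 28.8% of all 12423 tested genes that rose and 30.0% that fell. The 23 calls in either direction compare with 58.8% of all tested genes. At least 2-fold rises were seen in 17 of the 35 genes, against 13.1% of all tested genes. None fell by at least 2-fold, against 10.5% of all tested genes. Of the 17, Mif (log2 0.52) and Adm (0.69) were below 2-fold once a trend on transcript length over all genes had been removed. Car9, also among the 17, passed the filter through count-table TCM alone. The median log2 fold change of the 35 genes was 0.79, and that of all tested genes was -0.02. In each library the median distance of these genes from the count-table FCM mean was 0.71, 0.67 and 0.68 on the log2 CPM scale in count-table TCM replicates 1 to 3, against 0.07, -0.06 and -0.01 in count-table FCM replicates 1 to 3. Groups did not overlap in 26 of the 35 genes (74.3%), a share close to the 64.2% of all tested genes. With the replicate number as a block, 5 genes fell in place of 2, and without the replicate 1 libraries of both groups 7 fell and 23 rose.

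**Figure D1:**
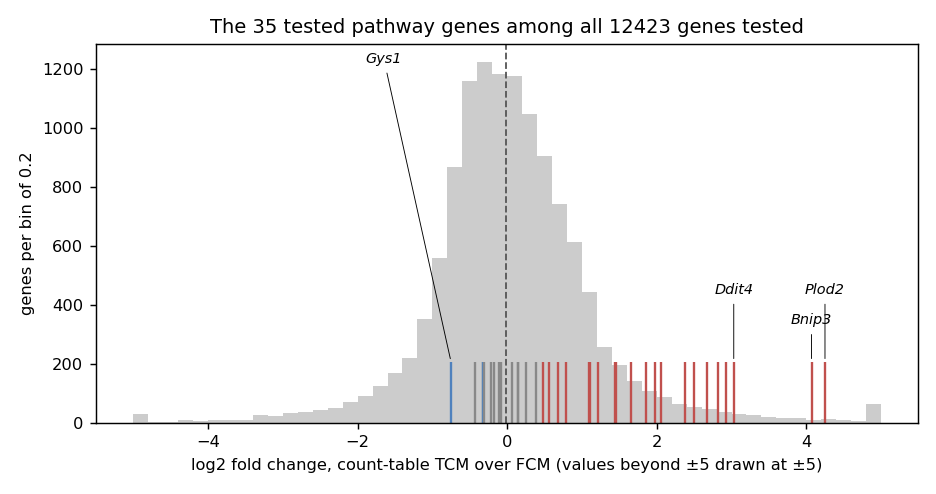
Histogram of log2 fold changes (count-table TCM over FCM, x axis) of all 12423 tested genes in grey, with the number of genes per bin on the y axis and their median as a dashed line. Vertical ticks mark the 35 tested pathway genes, red where called higher, blue where called lower and grey where not called. The ticks run from Gys1 at -0.75 to Plod2 at 4.25, and 17 red ticks lie at or above 1.

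Marker transcripts of several cell types also differed between the groups. Of 11 tested neutrophil markers 10 fell in count-table TCM, where their summed level was 1519 to 2617 CPM, against 8607 to 13240 CPM in count-table FCM. Of 9 tested macrophage and monocyte markers 6 fell and 2 rose, with sums of 148.0 to 155.6 CPM in count-table TCM and 530.0 to 623.8 CPM in count-table FCM. B cell markers summed to 1007 to 1211 CPM in count-table TCM and 1807 to 2188 CPM in count-table FCM, with 5 of 7 lower. Of 5 tested dendritic cell markers 3 fell (sums of 14.3 to 16.3 CPM in count-table TCM and 30.6 to 33.1 CPM in count-table FCM), and of 5 erythroid and platelet markers 4 fell (5.32 to 7.19 CPM and 11.1 to 13.0 CPM), with Hba-a2 at 0 in all libraries. Of 5 NK cell markers 1 rose and 2 fell, and their sums overlapped (96.4 to 146.6 CPM in count-table TCM and 109.4 to 131.1 CPM in count-table FCM). Summed T cell markers held 1004 to 1082 CPM in count-table TCM and 876.3 to 950.5 CPM in count-table FCM, with 2 of 9 higher and 1 lower, so that the labelled cell type was present beside B cells and myeloid cells. Fewer cells of a type and less RNA per cell cannot be told apart in bulk libraries. The part of these shifts in the pathway results below was not tested.

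Among the HIF subunits 1 of 3 rose, against 28.8% of all tested genes. Hif1a, the oxygen-labile subunit of HIF-1, had 431.6, 325.8 and 291.5 CPM in count-table TCM, against 375.8, 286.0 and 288.0 CPM in count-table FCM. The groups overlapped, and replicate 1 was the highest library of each. The log2 fold change was 0.14 ± 0.19 (SE, n = 3 per group; adjusted p = 0.543, edgeR), and it lay between -0.05 and 0.28 over the processing settings. Epas1 encodes the alternative alpha subunit of HIF-2 and had 8.41, 6.22 and 5.79 CPM in count-table TCM, against 2.86, 2.32 and 2.37 CPM in count-table FCM. All 3 count-table TCM libraries were higher, a 2.72-fold rise (log2 1.44 ± 0.19; adjusted p = 0.000257, edgeR). Epas1 remained a small share of alpha subunit transcripts per exon length, 2.01% ± 0.0386 in count-table TCM and 0.834% ± 0.0336 in count-table FCM (SD, n = 3 each). Arnt, the stable partner of both alpha subunits, averaged 37.1 ± 8.58 CPM in count-table TCM and 40.2 ± 4.73 CPM in count-table FCM, overlapped between groups and did not pass (log2 -0.11 ± 0.17). Without the replicate 1 libraries of both groups Arnt passed at -0.23 (adjusted p = 0.0288, edgeR, and 0.0288 to 0.98 over settings).

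The oxygen sensors did not move together. Egln3, a HIF prolyl hydroxylase that is itself a hypoxia target, had 137.3, 204.6 and 206.5 CPM in count-table TCM, against 31.3, 37.3 and 36.8 CPM in count-table FCM. Every count-table TCM library lay above all of count-table FCM, and the rise was 5.20-fold (log2 2.38 ± 0.19; adjusted p = 1.30e-05, edgeR). Egln1, the main hydroxylase that keeps HIF low in oxygen, had 183.3, 264.0 and 281.7 CPM in count-table TCM, against 77.5, 93.0 and 95.5 CPM in count-table FCM, a 2.74-fold rise without overlap (log2 1.45 ± 0.19; adjusted p = 0.000235, edgeR). Egln2, the remaining member of this enzyme family, had 58.3, 67.3 and 78.8 CPM in count-table TCM, against 67.3, 95.5 and 92.7 CPM in count-table FCM. Its groups overlapped and it did not pass (log2 -0.32 ± 0.17; adjusted p = 0.136, edgeR).

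The make-up of the prolyl hydroxylase transcripts therefore differed between groups, as the plot of family shares shows. Per exon length, Egln2 held 16.9%, 13.8% and 15.3% of the 3 transcripts in count-table TCM, against 41.9%, 46.1% and 45.0% in count-table FCM. Egln3 held 42.7% ± 1.23 in count-table TCM and 19.4% ± 0.930 in count-table FCM, and Egln1 42.0% ± 0.635 in count-table TCM and 36.3% ± 1.32 in count-table FCM (SD, n = 3 each). None of these shares overlapped between groups. Their summed level was 160.6 ± 32.6 CPM per kb in count-table TCM and 68.3 ± 9.46 CPM per kb in count-table FCM, a ratio of 2.35. No test was run on the shares.

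**Figure D2:**
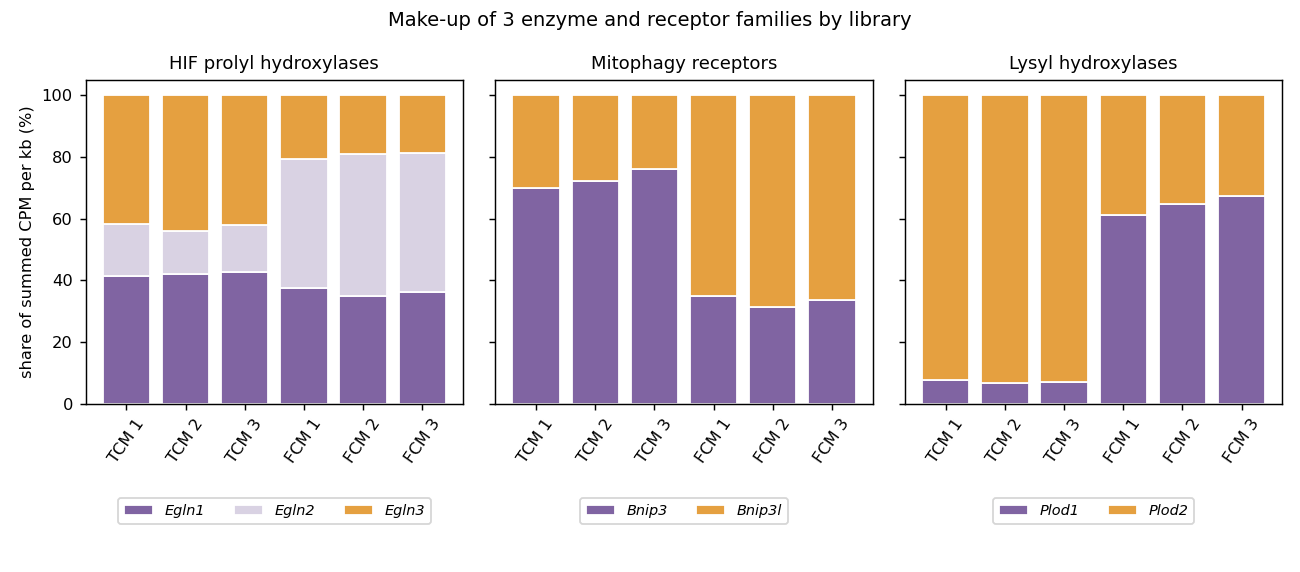
Share (percent, y axis) of each gene in the summed CPM per kb of exon length of its family, in each of the 3 count-table TCM and 3 count-table FCM libraries (x axis). Egln2 holds 13.8% to 16.9% of the hydroxylase transcripts in count-table TCM and 41.9% to 46.1% in count-table FCM, and the larger member of the Bnip3 and Plod pairs differs between the groups.

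Of the other regulators none passed. Vhl, the substrate receptor of the ubiquitin ligase, had 24.4, 25.1 and 25.0 CPM in count-table TCM, against 23.4, 19.1 and 20.4 CPM in count-table FCM, without overlap (log2 0.25 ± 0.12; adjusted p = 0.0937, edgeR). Hif1an, the asparaginyl hydroxylase, averaged 44.5 ± 14.3 CPM in count-table TCM and 59.9 ± 13.8 CPM in count-table FCM, with overlap (log2 -0.43 ± 0.24; adjusted p = 0.148, edgeR). Siah2, a ubiquitin ligase for prolyl hydroxylases, and Jmjd6, a JmjC-domain oxygenase, had log2 fold changes of 0.15 ± 0.21 and -0.08 ± 0.12 with overlapping groups. Jmjd6 overlaps Mettl23 on the opposite strand, and no strand setting is given, so reads of the overlap cannot be told apart.

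Some of these calls turned on the block or on 1 library. With the replicate number as a block, Vhl passed at 0.25 (adjusted p = 0.0303, edgeR), Egln2 at -0.32 (0.00454), and Hif1an at -0.45 (3.84e-05). The block fit drew its dispersions from a trend shared by all genes, so its p-values may be too small. Vhl passed without FCM replicate 1 (0.33; adjusted p = 0.0416), as did Egln2 (-0.47; 0.0313). Egln2 passed as well with library totals alone (-0.54; 0.0203), and Hif1an passed without TCM replicate 1 (-0.71; 0.0100). Over all settings adjusted p ran from 0.00527 to 0.929 for Vhl, 0.000713 to 0.36 for Egln2 and 3.84e-05 to 0.423 for Hif1an.

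All 5 genes for mitochondrial proteins rose, against 28.8% of all tested genes. None of them overlapped between groups, nor did 64.2% of all tested genes. Bnip3, a mitophagy receptor on the outer membrane, had 62.2, 87.0 and 78.0 CPM in count-table TCM, against 5.22, 3.89 and 4.42 CPM in count-table FCM. Its rise of 16.8-fold (log2 4.07 ± 0.18; adjusted p = 5.76e-07, edgeR) ranked 97 among all 12423 tested genes. The related receptor gene Bnip3l had 45.7, 56.7 and 41.6 CPM in count-table TCM, against 16.6, 14.4 and 15 CPM in count-table FCM, a 3.13-fold rise (log2 1.65 ± 0.14; adjusted p = 2.42e-05, edgeR). Bnip3 thus made up 72.8% ± 3.18 of the receptor pair per exon length in count-table TCM and 33.3% ± 1.74 in count-table FCM (SD, n = 3 each), and the summed level of the pair was 7.69 times as high in count-table TCM.

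Ak4, an adenylate kinase of the mitochondrial matrix, had 24.5, 26.3 and 23.9 CPM in count-table TCM, against 3.72, 3.40 and 3.41 CPM in count-table FCM, a 7.08-fold rise with little spread inside either group (log2 2.82 ± 0.12; adjusted p = 5.32e-07, edgeR). Higd1a, an inner membrane protein of the respiratory chain, had 104.7, 176.1 and 228.1 CPM in count-table TCM, against 34.9, 47.0 and 39.9 CPM in count-table FCM. It rose 4.18-fold (log2 2.06 ± 0.27; adjusted p = 0.000229, edgeR), and its count-table TCM libraries did not overlap those of count-table FCM. Fam162a, a hypoxia-induced mitochondrial protein, had 187.9, 293.9 and 310.0 CPM in count-table TCM, against 64.3, 71.5 and 81.8 CPM in count-table FCM, a 3.64-fold rise (log2 1.86 ± 0.21; adjusted p = 0.000102, edgeR). Its transcript is short, and its log2 fold change was 1.2 once a trend on transcript length over all genes had been removed. Fam162a also overlaps Wdr5b on the opposite strand, which had 3.33 CPM in count-table TCM and 4.55 CPM in count-table FCM.

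Among the genes for collagen-modifying and ER oxidation enzymes 4 of 5 rose, against 28.8% of all tested genes. Plod2, a lysyl hydroxylase that prepares collagen for cross-linking, had 74.7, 82.6 and 70.9 CPM in count-table TCM, against 4.76, 3.74 and 3.49 CPM in count-table FCM. This 19.1-fold rise was the highest of the 35 genes and ranked 87 of 12423 (log2 4.25 ± 0.16; adjusted p = 3.68e-07, edgeR). Plod1, which encodes another lysyl hydroxylase, had 7.66, 7.33 and 6.74 CPM in count-table TCM, against 9.44, 8.61 and 8.96 CPM in count-table FCM, and did not pass although the groups did not overlap (log2 -0.31 ± 0.12; adjusted p = 0.0531, edgeR). Plod1 passed with the replicate number as a block (-0.31; adjusted p = 0.0303) and without TCM replicate 1 (-0.35; 0.0437), with 0.0303 to 0.187 over settings. Plod2 held 92.9% ± 0.478 of the pair per exon length in count-table TCM and 35.6% ± 2.99 in count-table FCM (SD, n = 3 each).

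The catalytic subunits of collagen prolyl hydroxylase differed in size of change. P4ha2 had 2.50, 2.62 and 2.7 CPM in count-table TCM, against 0.454, 0.337 and 0.233 CPM in count-table FCM, a 7.63-fold rise (log2 2.93 ± 0.26; adjusted p = 2.73e-05, edgeR). P4ha2 reached the count filter in 3 count-table TCM libraries and 1 of count-table FCM, where it had 6 to 10 counts. P4ha1, the more abundant subunit gene, had 24.6, 25.0 and 27.8 CPM in count-table TCM, against 20.6, 17.7 and 17.4 CPM in count-table FCM, a 1.39-fold rise (adjusted p = 0.00756, edgeR). Ero1l, which encodes the oxidase that recharges disulphide isomerase in the ER, had 101.1, 94.8 and 86.5 CPM in count-table TCM, against 74.9, 55.9 and 60.9 CPM in count-table FCM, a 1.47-fold rise (adjusted p = 0.00943, edgeR). Neither P4ha1 (log2 0.25; adjusted p = 0.284, and 2.40e-05 to 0.284 over settings) nor Ero1l (0.34; 0.214, and 2.47e-07 to 0.214) passed when libraries were scaled by their totals alone. That scaling moved the median of all genes from -0.02 to -0.23 on the log2 scale.

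Promoter sequences are shown for the 3 genes with the highest fold changes that had a RefSeq window with a HIF core. Each window runs from 250 bases before to 50 bases after a RefSeq transcript start on GRCm38.p6, 5′ to 3′ on the gene's strand, and capitals mark ACGTG or GCGTG on either strand (CACGT and CACGC on the other). The windows are chr7:138909457-138909756 on the minus strand for Bnip3, chr10:59951721-59952020 on the minus strand for Ddit4, and chr11:54100674-54100973 on the plus strand for P4ha2.
Bnip3: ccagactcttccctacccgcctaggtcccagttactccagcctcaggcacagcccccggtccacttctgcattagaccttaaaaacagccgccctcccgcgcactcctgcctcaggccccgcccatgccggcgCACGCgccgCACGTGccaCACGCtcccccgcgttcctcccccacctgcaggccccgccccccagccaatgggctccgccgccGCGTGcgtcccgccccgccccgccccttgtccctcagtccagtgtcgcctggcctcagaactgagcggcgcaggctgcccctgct
Ddit4: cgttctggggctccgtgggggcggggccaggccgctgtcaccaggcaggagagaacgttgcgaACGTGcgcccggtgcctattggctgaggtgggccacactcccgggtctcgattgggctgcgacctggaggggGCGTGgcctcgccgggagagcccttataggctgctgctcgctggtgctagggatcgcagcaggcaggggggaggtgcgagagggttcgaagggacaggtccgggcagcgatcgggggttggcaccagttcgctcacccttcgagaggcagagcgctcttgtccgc
P4ha2: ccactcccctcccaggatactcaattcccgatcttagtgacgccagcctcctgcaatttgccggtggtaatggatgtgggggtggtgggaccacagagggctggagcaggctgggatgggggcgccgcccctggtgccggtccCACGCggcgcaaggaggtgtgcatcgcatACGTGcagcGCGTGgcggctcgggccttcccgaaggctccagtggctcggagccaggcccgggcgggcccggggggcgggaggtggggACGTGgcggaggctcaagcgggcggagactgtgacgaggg
In Bnip3 5 matches began between 117 and 35 bases before the start, and the matches at 108 and 107 bases are the same palindrome read on both strands. Ddit4 had 2 matches, 187 and 115 bases before the start, and P4ha2 had 4, of which 1 began 10 bases after the start.

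Windows existed for 29 of the 36 genes. Of the 17 genes that rose and had a window, 15 (88.2%) had ACGTG on either strand in at least 1 window, against 29.6% of the 9253 tested genes with a window. Among the 9 genes with a window that were not called, 3 (33.3%) had it. Counted by window, either core was in 22 of 23 windows (95.7%) of the genes that rose, in 7 of 12 (58.3%) of those not called, and in 61.6% of the 11761 windows of tested genes. Windows of 1 gene can overlap, as the first 3 of the 4 windows of Ak4 do. Both cores contain a CG, and windows of the genes that rose had a median of 26 CG dinucleotides. The median was 24.5 in windows of the genes not called and 20 in windows of all tested genes. These matches describe letters in a short window, and many of the 36 genes were listed because they are known HIF targets.

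**Figure D3:**
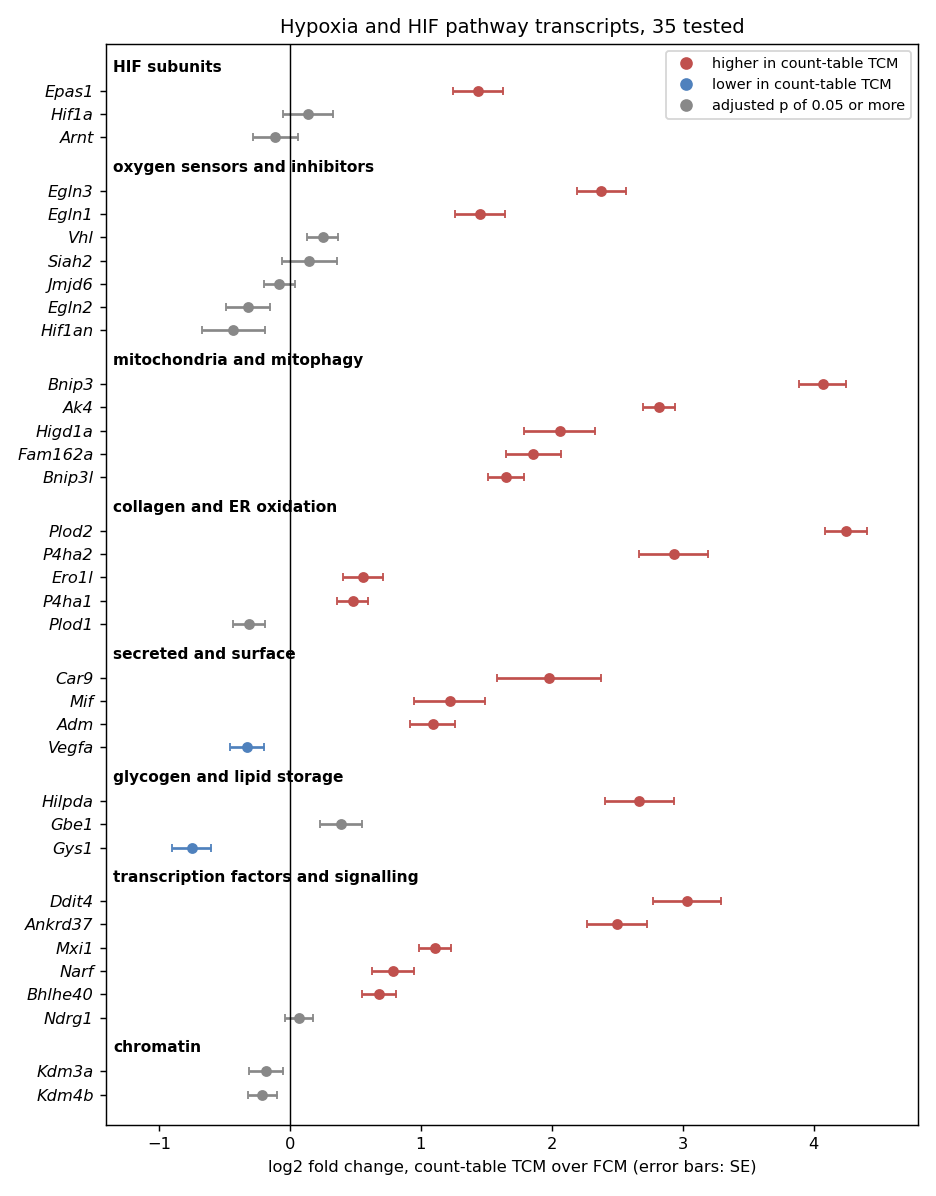
Log2 fold change (count-table TCM over FCM, x axis) of the 35 tested genes, grouped by role, with the standard error as bars and colour for the call at an adjusted p of 0.05. All 5 mitochondrial genes lie between 1.65 and 4.07, while the regulators of HIF run from -0.43 for Hif1an to 2.38 for Egln3.

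Of the genes for secreted and surface proteins 3 rose and 1 fell, against 28.8% and 30.0% of all tested genes. Mif, a cytokine that retains macrophages at sites of inflammation, had 788.4, 1398 and 1576 CPM in count-table TCM, against 435.0, 571.3 and 607.9 CPM in count-table FCM, a 2.33-fold rise (log2 1.22 ± 0.27; adjusted p = 0.00429, edgeR). Replicate 1 was the lowest library of both groups, and the groups did not overlap. Mif has a short transcript and its log2 fold change was 0.52 with the length trend removed. Mouse Mif also has near-identical pseudogenes, and how reads that match several copies were counted is not given, so its value is uncertain. Adm, which encodes the vasodilator peptide adrenomedullin, had 8.09, 11.3 and 10.2 CPM in count-table TCM, against 4.17, 4.34 and 5.27 CPM in count-table FCM, a 2.14-fold rise (log2 1.09 ± 0.17; adjusted p = 0.000592, edgeR) that came to 0.69 on the log2 scale with the length trend removed.

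Vegfa, the angiogenic growth factor and a much used HIF target, went against the other secreted genes. It had 67.1, 78.6 and 80.4 CPM in count-table TCM, against 88.9, 99.6 and 96.5 CPM in count-table FCM, and was 1.26-fold lower (log2 -0.33 ± 0.13; adjusted p = 0.0471, edgeR). The groups did not overlap, but the call rested on the settings. It was lost without TCM replicate 1 (-0.25; adjusted p = 0.0785), TCM replicate 2 (-0.36; 0.105), TCM replicate 3 (-0.37; 0.0798), FCM replicate 2 (-0.30; 0.152) or FCM replicate 3 (-0.33; 0.131). It was lost as well with DESeq2's test (0.0515), its size factors (0.0762) or no filter (0.0650). Its adjusted p was 0.00252 with the replicate number as a block and ran from 0.00173 to 0.152 over all settings.

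The surface proteins were near the limit of detection. Car9, a carbonic anhydrase and tumour hypoxia marker, had 23, 13 and 12 counts in count-table TCM, against 7, 4 and 6 counts in count-table FCM. It passed the count filter through count-table TCM alone, where it had 0.917 ± 0.281 CPM, against 0.233 ± 0.084 CPM in count-table FCM (SD, n = 3 each), and rose 3.96-fold (log2 1.98 ± 0.40; adjusted p = 0.00253, edgeR). Tmem45a, a membrane protein gene, was the single member left out by the filter, with 2, 3 and 6 counts in count-table TCM and 0 counts in all libraries of count-table FCM. Its 11 counts in count-table TCM were 5.27-fold above an assumed floor of 3 counts over the count-table FCM group, after scaling. With so few counts this ratio is imprecise and is no lower bound. Tmem45a had an adjusted p of 0.00874 when no filter was applied (edgeR).

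Energy storage genes split. Hilpda, a lipid droplet protein that inhibits triglyceride breakdown, had 150.2, 269.0 and 296.3 CPM in count-table TCM, against 30.3, 42.2 and 40.1 CPM in count-table FCM, a 6.35-fold rise without overlap (log2 2.67 ± 0.26; adjusted p = 5.03e-05, edgeR) that came to 2.08 on the log2 scale with the length trend removed. Gys1, the glycogen synthase of muscle and many other tissues, had 53.7, 46.0 and 37.8 CPM in count-table TCM, against 82.2, 73.3 and 76.5 CPM in count-table FCM. It was 1.69-fold lower without overlap (log2 -0.75 ± 0.15; adjusted p = 0.00225, edgeR), and it was the sole gene of the 35 whose fall passed in every setting with a test. Gys1 overlaps Ruvbl2 on the opposite strand, whose log2 fold change was -0.24 ± 0.15. Gbe1, the glycogen branching enzyme, averaged 13.6 ± 2.29 CPM in count-table TCM and 10.4 ± 1.56 CPM in count-table FCM with overlap, and did not pass (log2 0.39 ± 0.16; adjusted p = 0.0675, edgeR). Gbe1 passed with the replicate number as a block (0.38; adjusted p = 0.00309), without TCM replicate 3 (0.51; 0.0334), without FCM replicate 1 (0.51; 0.0299) and with DESeq2's test (0.42; 0.0473) or size factors (0.42; 0.0426), and its adjusted p ran from 0.00309 to 0.569 over settings.

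Of 6 genes for transcription factors and signalling 5 rose, against 28.8% of all tested genes. Ddit4, an inhibitor of the growth kinase mTORC1 that several stress pathways share, had 635.6, 1080 and 1103 CPM in count-table TCM, against 90.6, 130.8 and 123.3 CPM in count-table FCM. It rose 8.17-fold, with replicate 1 lowest in both groups (log2 3.03 ± 0.26; adjusted p = 2.25e-05, edgeR). Ankrd37, an ankyrin repeat protein gene induced by HIF, had 25.4, 45.4 and 42.8 CPM in count-table TCM, against 6.22, 6.02 and 7.79 CPM in count-table FCM, a 5.65-fold rise (log2 2.50 ± 0.23; adjusted p = 3.00e-05, edgeR). With the length trend removed the log2 fold changes of Ddit4 and Ankrd37 were 2.66 and 2.07. Ankrd37 overlaps Ufsp2 on the opposite strand, which also rose (log2 0.84 ± 0.14), and without a strand setting their shared reads cannot be told apart. Mxi1, an antagonist of MYC, had 39.4, 42.7 and 37.2 CPM in count-table TCM, against 18.4, 16.9 and 19.7 CPM in count-table FCM, a 2.16-fold rise without overlap (adjusted p = 6.80e-05, edgeR).

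Smaller rises came from Bhlhe40 and Narf. Bhlhe40, a transcriptional repressor that activated T cells also use, had 386.0, 369.8 and 378.0 CPM in count-table TCM, against 222.3, 238.2 and 246.5 CPM in count-table FCM, a 1.6-fold rise (adjusted p = 0.00228, edgeR). Narf, which encodes a nuclear prelamin A binding protein, averaged 18.0 ± 2.74 CPM in count-table TCM and 10.5 ± 1.73 CPM in count-table FCM (SD, n = 3 each), a 1.73-fold rise (adjusted p = 0.00281, edgeR) that did not pass with library totals alone (log2 0.58; adjusted p = 0.0787, and 1.19e-10 to 0.0787 over settings). Ndrg1, a stress-responsive gene often used as a hypoxia marker, had 67.8, 61.8 and 62.4 CPM in count-table TCM, against 60.1, 62.0 and 61.0 CPM in count-table FCM. Its groups overlapped and it did not pass (log2 0.07 ± 0.11; adjusted p = 0.61, edgeR).

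Neither histone demethylase gene passed. Kdm3a averaged 28.5 ± 2.66 CPM in count-table TCM and 32.3 ± 4.07 CPM in count-table FCM, with overlap (SD, n = 3 each; log2 -0.18 ± 0.13; adjusted p = 0.263, edgeR). Kdm4b had 20.9, 18.4 and 17.5 CPM in count-table TCM, against 21.8, 22.8 and 21.0 CPM in count-table FCM (log2 -0.21 ± 0.11; adjusted p = 0.143, edgeR). Kdm4b passed without TCM replicate 1 (-0.28; adjusted p = 0.0493) and had adjusted p-values of 0.0139 to 0.407 over settings.

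**Figure D4:**
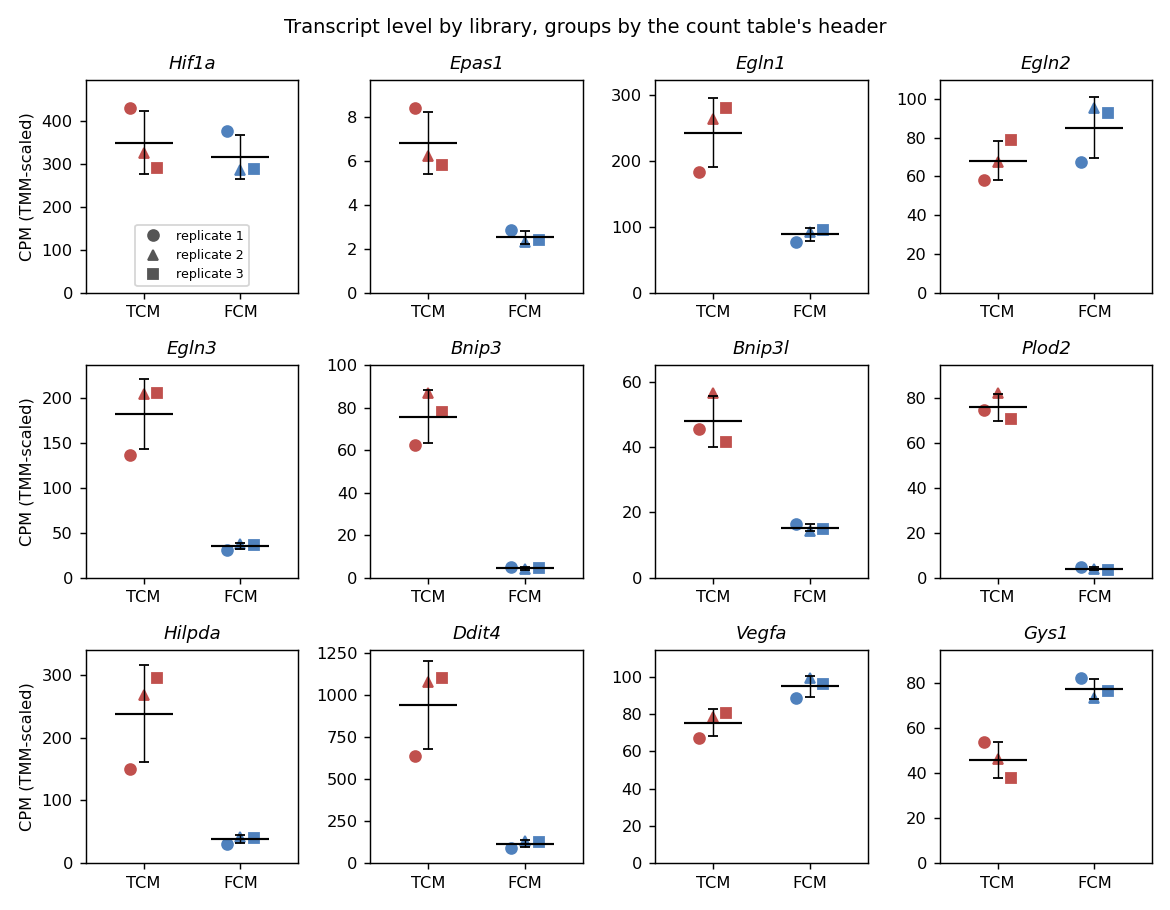
Level in CPM scaled by TMM (y axis, from 0) of 12 genes in each library, with count-table TCM in red at the left and count-table FCM in blue at the right of each panel. Symbols mark replicates 1 to 3, horizontal lines the group means and bars the SD (n = 3 each). Bnip3, Plod2, Hilpda, Ddit4 and Egln3 are higher in all 3 count-table TCM libraries, Gys1 and Vegfa are lower in all 3, and Hif1a and Egln2 overlap.

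The order of levels within the pathway also differed between groups. Per exon length Mif was the most abundant of the 36 transcripts in both groups, at 1683 CPM per kb in count-table TCM and 722.2 CPM per kb in count-table FCM. Ddit4 followed at 535.2 CPM per kb in count-table TCM, where Fam162a had 310.5 and Hilpda 216.2 CPM per kb, against 65.5, 85.3 and 34 CPM per kb for these 3 genes in count-table FCM. Bnip3 ranked 10 of 36 by level in count-table TCM and 28 in count-table FCM, and Plod2 ranked 16 in count-table TCM and 32 in count-table FCM. Tmem45a, Car9 and P4ha2 held the lowest 3 places in both groups, at 0.418 CPM per kb or less.

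Further genes of the pathway moved in part with these. Of 24 tested genes for HIF-linked glycolysis and glucose transport 20 rose (83.3%) and 1 fell (4.17%). Over all tested genes the shares were 28.8% and 30.0%. The median log2 fold change of this list was 1.04, and it too was chosen with earlier results known. Eno2, a neuronal-type enolase, rose 6.05-fold to 13.3 ± 1.14 CPM in count-table TCM, against 2.20 ± 0.0596 CPM in count-table FCM, and Pgm2 and Tpi1 rose 3.15-fold and 6.25-fold (adjusted p of 1.38e-06 to 4.03e-06, edgeR). Pfkfb4, which sets the level of a glycolytic activator, had 5.37, 4.78 and 3.77 CPM in count-table TCM, against 9.85, 10.2 and 9.50 CPM in count-table FCM, and was 2.12-fold lower (adjusted p = 0.000374, edgeR).

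Regulators of HIF outside the 36 genes were near the background shares. Of 24 tested, 5 rose (20.8%) and 7 fell (29.2%), with a median log2 fold change of -0.12. The genes of the coactivators that HIF recruits were among those that fell, with the length trend not removed. Ep300 had 97.8, 76.9 and 82.6 CPM in count-table TCM, against 158.0, 152.7 and 143.6 CPM in count-table FCM, and Crebbp averaged 81.3 ± 12.5 CPM in count-table TCM and 157.3 ± 6.78 CPM in count-table FCM (SD, n = 3 each). The groups did not overlap in either gene, with 1.77-fold and 1.93-fold lower levels (adjusted p = 0.00101 and 0.00062, edgeR). Ogt, an O-GlcNAc transferase, was 2.07-fold lower. Siah1b and Siah1a, ubiquitin ligases related to Siah2, rose 2.01-fold and 1.44-fold.

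Of 45 other tested hypoxia response genes 15 were higher (33.3%) and 12 lower (26.7%) at a median log2 fold change of 0.16, shares near the 28.8% and 30.0% of all tested genes. Edn1, which encodes the vasoconstrictor endothelin, had 11.5, 9.89 and 10.6 CPM in count-table TCM, against 0.454, 0.748 and 0.465 CPM in count-table FCM, an 18.8-fold rise (log2 4.23 ± 0.20; adjusted p = 8.81e-07, edgeR). In count-table FCM Edn1 was near the filter's cutoff of 0.501 CPM, which is set on library totals without TMM scaling. Ppp1r3b, a glycogen-targeting phosphatase subunit, rose 7.10-fold. Among those that fell, Flt1, a VEGF receptor, had 0.213, 0.131 and 0 CPM in count-table TCM, against 3.99, 4.75 and 3.76 CPM in count-table FCM. It passed the filter through count-table FCM alone, and its few counts in count-table TCM give no precise fold change. Entpd1, an ectonucleotidase of lymphocytes and myeloid cells, was 3.03-fold lower, and Lonp1, a mitochondrial protease, 2.15-fold lower. Groups did not overlap in any of these 5 genes, picked for small p, nor in 64.2% of all tested genes.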

How the data were processed

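Counts, as deposited by the authors, are unscaled exon reads for each gene symbol. The authors' normalized table is a signal, equal to those reads over a factor for each library, and served only to check the headers: 100% of its values came out as whole reads at a tolerance of 0.1 reads. The build mm10 and the tools DESeq2 1.28.1 and STAR 2.7.2d appear in the submitters' processing notes. The sources used here state neither their roles, nor an annotation, nor a strand setting. The 92 spike-in rows held 0 counts and were left out.

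Columns were assigned by title. Genes were kept with filterByExpr in edgeR 4.0.16 (R 4.3.3), scaled with TMM and tested with the quasi-likelihood test on group alone, and 12423 p-values were adjusted by Benjamini-Hochberg. Each SE is the log2 fold change divided by the square root of F. CPM are TMM-scaled. DESeq2 1.42.0 was an alternative. The test was tried on simulated counts. Gene spans and exon lengths, the union of all exons, come from GENCODE M21 on GRCm38, also called mm10, and promoters from RefSeq. The trend on length is a lowess curve (span 0.3) over the 12277 tested genes with a length. Depth makes values of a few counts imprecise.

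All replicate pairs were further apart than counting noise (a chi-square of 5.08 to 110 for each gene). No label says that equal replicate numbers share a source, but same-numbered libraries deviated from their group means together (correlations of 0.60, 0.146 and 0.36 for replicates 1, 2 and 3). The differently numbered TCM 3 with FCM 2 (0.424) and TCM 2 with FCM 3 (0.266) also did, above the value of pair 2, and other pairs with a replicate 1 were at -0.553 to -0.287. The paired fit with a replicate block is given beside results whose call it changes. Its prior degrees of freedom, the weight of the dispersion trend shared by all genes, were infinite, against 5.03 in the main fit. Its p-values may therefore be too small, and they set the low end of many ranges over settings. The members and lists were chosen with earlier results of these data known. All 36 members are named, and from each other list up to 3 genes per direction with the smallest p, of which some are not reported here. Promoters are printed for the 3 largest rises without overlap that had a match.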

Additional observations from a re-analysis of the deposited data

How the results depend on the processing

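Under 12 alternatives with a test, 18 of the 21 rises, 1 of the 2 falls (Gys1) and 5 of the 12 uncalled genes kept their call. Taking the groups from the normalized table's header gave 2 genes higher, 21 lower and a median of -0.79. The count of 2 genes lower became 1 with DESeq2's size factors, DESeq2's test or no filter, 5 with the replicate block, 7 without replicate 1 of both groups, and 1 to 4 when 1 library was left out. The median of 0.79 was 0.58 with library totals alone, 0.93 with no filter, 0.69 with the length trend removed, and 0.67 to 0.93 when 1 library was left out. Library totals alone gave 2364 genes higher over all genes, against 3584. The cause of these shifts was not tested, except that no filter adds Tmem45a to the median.

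The paired fit with the replicate block called 23 genes higher and 5 lower, and it changed the call of Vhl, Hif1an, Egln2, Plod1 and Gbe1 and of no other member. With the length trend removed no called gene changed sign. For genes with few counts (Tmem45a, Car9, P4ha2, Edn1, Flt1) depth limits the fold change.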
